A study of Sus scrofa with 20 samples.

Results

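The genes described here drive DNA replication and mitosis, and their RNA levels were compared across 4 skin sites of the pig. The members were 38 named gene symbols, taken wherever a pig Ensembl identifier in the deposited table maps to one of them. A row was matched for 33 of the 38, out of 19280 genes in the table, and none was matched for PCNA, RRM2, CCNA2, AURKA and MKI67. All 33 passed the filter on low counts in every fit.

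The samples were skin punch biopsies, 4 mm across, from 5 wild-type female Yorkshire pigs, 1 pig at each age of 4, 5, 6, 7 and 8 months. Each pig gave 1 biopsy at each of the sites labelled volar, flank, dorsal and snout, and the labels name no treatment. Polyadenylated RNA of the whole biopsy was sequenced in 20 libraries. Age and animal cannot be told apart, because each age is 1 pig. In whole biopsies, fewer dividing cells and less of a transcript per cell cannot be told apart either.

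By library number the samples split into a first set of 12 (pigs of 4, 7 and 8 months) and a second set of 8 (pigs of 5 and 6 months). The site labels of the sets did not match by expression profile. Without the cell cycle genes, over the 2000 most variable genes, the 2 second-set libraries labelled flank were closest to first-set volar skin (r = 0.87 for both). Those labelled volar were closest to snout (r = 0.78 and 0.83), those labelled dorsal to flank (r = 0.84 and 0.81) and those labelled snout to dorsal (r = 0.82 and 0.86). The next closest site was dorsal for dorsal-labelled libraries (r = 0.63 and 0.75) and flank for snout-labelled ones (r = 0.68 and 0.64). For flank- and volar-labelled libraries it reached at most 0.04, so flank and dorsal were told apart less clearly than volar and snout. Epidermal and hair markers were free to enter this match, so their levels describe the matched libraries and are no separate check of it. Differentiated keratinocyte markers had a summed 247000 to 280000 CPM in first-set volar skin. The sum was 464000 to 581000 in the second-set libraries labelled flank, and 11600 to 28100 elsewhere. CPM are counts scaled to a library size adjusted by trimmed mean scaling, so these sums are not shares of a library's counts. The scaling factors were 0.576 and 0.57 in the second-set libraries labelled flank and 0.739 to 0.812 in first-set volar skin. Hair shaft markers summed to 15.6 to 51 CPM in those same 5 libraries and to 357 to 17100 in the other 15. Sites were therefore compared within each set under the deposited labels, and a pair of second-set labels was set beside the first-set pair that its profiles match. A further fit over all 5 pigs placed the second-set libraries by profile. Libraries held 34077861 to 66906489 counts. Levels here and below are CPM after trimmed mean scaling (TMM) over all 20 libraries, and compare 1 gene between libraries, not genes with each other.

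A cell that is to divide first loads the MCM helicase on its replication origins, copies its DNA, and then builds up the cyclin B kinase, kinetochore and spindle proteins that separate the chromosomes. Most of these genes are transcribed late in the cycle by shared transcription factors, so their RNA is widely used as a measure of how many cells are dividing. In skin, dividing cells lie mainly in the basal epidermis and in the matrix of growing hair follicles.

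Across the first-set sites, RNA of the cell cycle genes differed little beyond the spread between pigs. Volar skin had higher levels of MCM5, a subunit of the replicative helicase, and of NUSAP1, a microtubule-binding protein of the mitotic spindle. These 2 of 33 members passed the test between volar and flank skin, both higher in volar (edgeR quasi-likelihood test, Benjamini-Hochberg adjusted p under 0.05), where 32.9% of all genes tested were called. Between volar and dorsal skin MCM5 alone passed, with 24.1% of all genes called. The median log2 difference of the 33 members was 0.14 between volar and flank and 0.19 between volar and dorsal, beside -0.05 and -0.01 over all genes tested. A test for any difference among the 4 sites called MCM5 alone (adjusted p = 0.0279), with 30.4% of all genes called.

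None of the 33 passed the edgeR test in the first set between volar and snout (11.6% of all genes called), snout and flank (13.2%), snout and dorsal (7.92%) or dorsal and flank (0.131%). An unadjusted p under 0.05 was reached by 1 member in each of the first 3 of these comparisons and by 0 between dorsal and flank. DESeq2 called 1, 1, 0 and 0 members in the same order. With the pig as a block, NUSAP1 passed between snout and flank (log2 difference 0.40 ± 0.10 SE, adjusted p = 0.0301) and between volar and dorsal (0.36 ± 0.10, adjusted p = 0.0278). The 95% interval of the difference lay within 2-fold in either direction for 21 of 33 members between volar and flank, 20 between volar and dorsal, 27 between volar and snout, 23 between snout and flank, 25 between snout and dorsal and 25 between dorsal and flank. For the other members the interval reached beyond 2-fold.

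**Figure D1:**
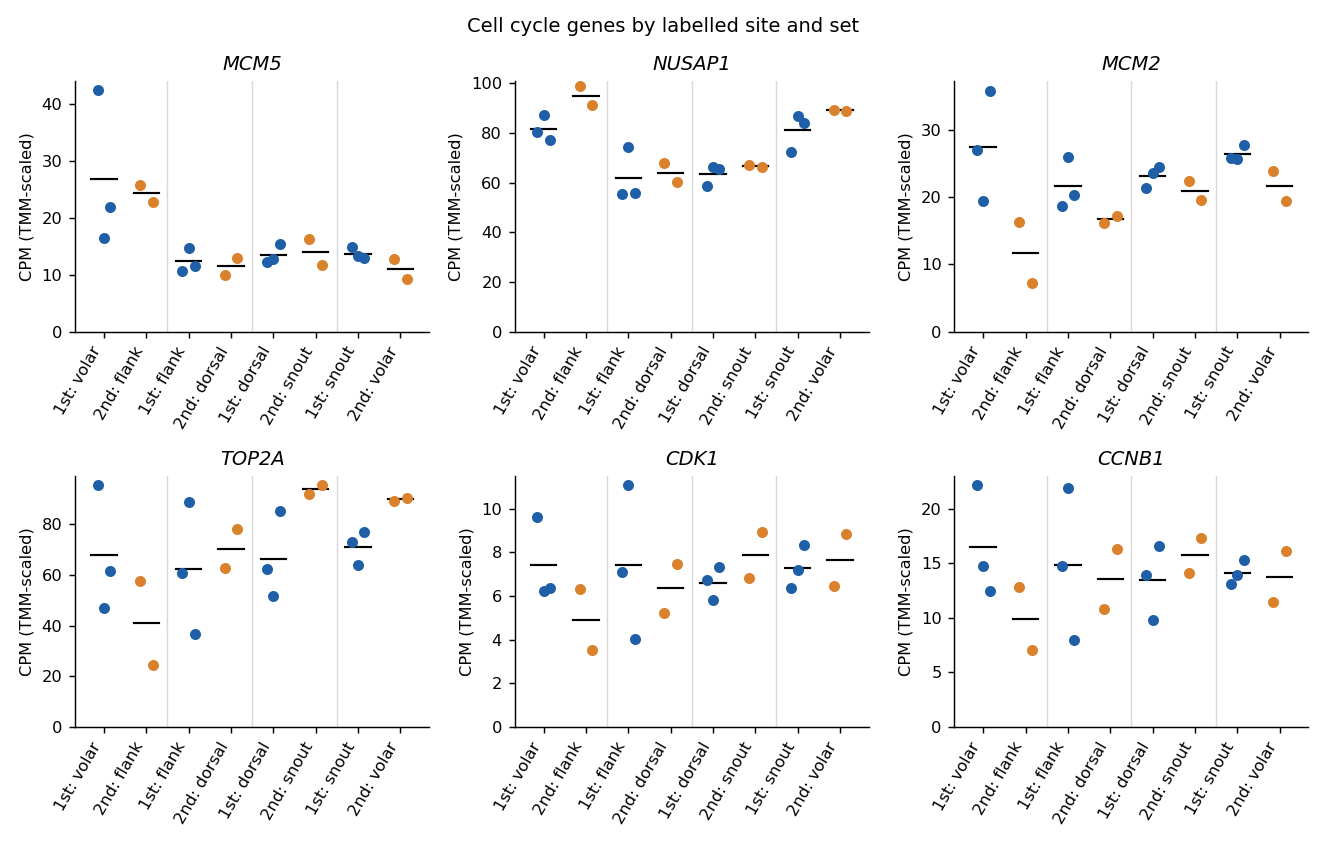
Levels of 6 cell cycle genes (vertical axis, TMM-scaled CPM) in each library, with the first set in blue (pigs of 4, 7 and 8 months from left to right), the second set in orange (5 and 6 months) and the group mean as a black line. Each second-set group stands by its deposited label, to the right of the first-set site its profile matches. MCM5 was 16.4 to 42.3 CPM in first-set volar and second-set flank-labelled libraries and 9.16 to 16.3 elsewhere, while CDK1 and CCNB1 overlapped between the groups.

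Among the licensing genes, MCM5 was at 42.3, 16.4 and 21.8 CPM in volar skin of the pigs aged 4, 7 and 8 months. Flank skin of the same pigs had 10.7, 14.7 and 11.6 CPM, dorsal skin 12.2, 12.7 and 15.4, and snout skin 14.8, 13.2 and 13.0. All 3 volar libraries were above the 9 others, and the 4-month volar library was the highest by a wide margin. The volar level was 2.17-fold that of flank (log2 difference 1.12 ± 0.29 SE, n = 3 pigs each, adjusted p = 0.0145) and 1.99-fold that of dorsal skin (1.00 ± 0.29, adjusted p = 0.0308). Without the 4-month pig the differences were 0.54 (adjusted p = 0.12) and 0.44 (adjusted p = 0.228), and the volar to flank call was also lost without the 8-month pig. The volar to dorsal call was lost without any 1 of the 3 pigs, and also without the 4-month volar library or any 1 of the 3 dorsal libraries.

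MCM2, another subunit of the same ring-shaped helicase, was at 27.0, 19.4 and 35.8 CPM in volar skin and at 18.7, 25.9 and 20.3 CPM in flank skin, so the sites overlapped (0.34 ± 0.20, adjusted p = 0.224). Dorsal skin had 21.4, 23.6 and 24.4 CPM and snout skin 25.8, 25.6 and 27.8. Its higher volar mean came from the pigs of 4 and 8 months and was turned round in the 7-month pig. The 7 licensing and synthesis genes (MCM2 through MCM7 and TYMS, which makes the thymidine nucleotide for DNA) all had a positive volar to flank difference, from 0.06 to 1.12. Only MCM5 among them passed. MCM6 and MCM7, loaded on DNA in the same complex as MCM5, differed by 0.06 ± 0.17 and 0.08 ± 0.16 between the same sites.

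Cyclin B and its kinase, which start mitosis, did not separate the first-set sites. CDK1 was at 9.63, 6.20 and 6.38 CPM in volar and at 7.09, 11.1 and 4.01 CPM in flank skin (0.00 ± 0.32, 95% interval -0.71 to 0.71, adjusted p = 0.999). Its cyclin CCNB1 had 22.2, 14.7 and 12.4 CPM in volar and 14.7, 21.9 and 7.99 CPM in flank skin (0.14 ± 0.34, adjusted p = 0.784). In both genes the highest flank library was that of the 7-month pig and the lowest that of the 8-month pig. The second mitotic cyclin, CCNB2, had 8.21, 3.91 and 5.19 CPM in volar and 5.00, 6.25 and 3.18 CPM in flank skin (0.26 ± 0.33, adjusted p = 0.586). PLK1, a kinase of mitotic entry and spindle assembly, had 3.95, 2.52 and 3.03 CPM in volar and 2.13, 3.36 and 1.43 CPM in flank skin (0.45 ± 0.32, adjusted p = 0.311). All 5 cyclins and kinases, AURKB included, had volar and flank levels that overlapped, and none passed.

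The kinetochore genes were the one role group whose median was on the other side. Their median volar to flank difference was -0.11, with 6 of 7 negative and none passing. NUF2, part of the outer kinetochore complex that holds microtubules, had 8.09, 5.71 and 5.43 CPM in volar and 6.78, 9.04 and 6.51 CPM in flank skin (-0.22 ± 0.20, adjusted p = 0.439). CENPA, the histone that marks the centromere, had 4.97, 1.83 and 2.74 CPM in volar and 4.68, 5.02 and 2.00 CPM in flank skin (-0.30 ± 0.41, adjusted p = 0.63). BUB1B, a spindle checkpoint kinase, was the member with a positive difference.

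NUSAP1 was the spindle gene that differed. It had 80.4, 87.1 and 77.4 CPM in volar skin of the pigs aged 4, 7 and 8 months and 55.4, 74.5 and 56.0 CPM in flank skin. Dorsal skin had 58.8, 66.4 and 65.6 CPM and snout skin 72.5, 86.8 and 84.2. The volar libraries were above all flank and dorsal libraries and overlapped those of snout skin. The volar to flank difference was 0.40 ± 0.13 (1.32-fold, adjusted p = 0.0423), a value close to the threshold, and the call was lost in 14 of 23 alternative settings, among them every one that left out a whole pig (highest adjusted p = 0.225). The other 12 genes of spindle, motors and cytokinesis ran from -0.45 to 0.32 and passed no test. Among them ANLN, an actin-binding protein of the cleavage furrow, had 52.9, 33.9 and 46.8 CPM in volar and 40.5, 43.0 and 26 CPM in flank skin (0.29 ± 0.22, adjusted p = 0.357).

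TOP2A, the topoisomerase that untangles chromosomes for mitosis, was at 95.4, 47.0 and 61.5 CPM in volar and 61.0, 88.9 and 36.8 CPM in flank skin (0.12 ± 0.33, adjusted p = 0.807). Dorsal skin had 62.5, 51.9 and 85.2 CPM and snout skin 72.9, 63.9 and 77.0. The order of the pigs differed from site to site: the 7-month pig was highest in flank and lowest in volar, dorsal and snout skin.

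In the second set, libraries labelled flank had more MCM5 than those of each other label, more NUSAP1 than those labelled dorsal or snout, and less TOP2A, CCNB2, CENPA and KIF20A than those labelled volar or snout. No mitotic member was called higher in dorsal-labelled than flank-labelled libraries by the main edgeR test. The mitotic sums overlapped (318 and 462 CPM labelled flank, 390 and 481 labelled dorsal). DESeq2 called KIF20A (0.99, adjusted p = 0.0286) and PRC1 (0.77, adjusted p = 0.0488) higher labelled dorsal, and limma-voom KIF20A (1.08, adjusted p = 0.0476). With upper-quartile scaling edgeR called CCNB2 and CENPA higher there (0.92 each, adjusted p = 0.0483 and 0.0458). Other scaling and filters and the pig block added no mitotic member. Under the deposited labels, volar against flank called 6 members higher and 1 lower (38.5% of all genes called), snout against flank 7 higher and 2 lower (42.9%) and dorsal against flank 1 higher and 2 lower (46.7%). Volar against dorsal called NUSAP1 alone (13% of all genes), and the test for any site called NUSAP1, MCM5, CENPA and MCM7 (44.5%). Volar against snout and snout against dorsal called none by edgeR (10.2% and 0.0393% of all genes), with 1 and 0 members at an unadjusted p under 0.05 and 1 and 0 by DESeq2. With the pig as a block, volar against snout called NUSAP1 (0.42, adjusted p = 0.0453). The block added NUF2 (1.00 ± 0.25, adjusted p = 0.0191) and MCM2 (0.92 ± 0.29, adjusted p = 0.044) to volar against flank and removed KIF20A there. It added NUF2 (0.92 ± 0.25, adjusted p = 0.0231), MCM2 (0.88 ± 0.29, adjusted p = 0.0475) and MCM3 (1.04 ± 0.35, adjusted p = 0.0494) to snout against flank, and MCM6 (0.53 ± 0.16, adjusted p = 0.0348) to dorsal against flank. Each of these tests had 2 pigs a site, and the NUSAP1 call between volar and dorsal was lost without any 1 of the 8 libraries.

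TOP2A had 57.7 and 24.3 CPM in the flank-labelled libraries of the pigs aged 5 and 6 months. It had 89.2 and 90.6 CPM in those labelled volar, 92.2 and 95.5 in snout and 62.6 and 78.3 in dorsal. Both flank-labelled libraries were below the 6 others, and the 6-month one was lower than any other of the 20 libraries. The volar to flank difference was 1.12 ± 0.36 (adjusted p = 0.0443) and the snout to flank difference 1.18 ± 0.36 (adjusted p = 0.0342). The same 2 comparisons also called CCNB2 (1.03 ± 0.31 in both), CENPA (1.05 and 1.32), the cytokinesis motor KIF20A (1.16 and 1.33), MCM6 (0.75 and 0.58) and MCM7 (0.62 and 0.66). Snout against flank called PRC1, the cross-linker of the spindle midzone, as well (1.07 ± 0.32, adjusted p = 0.0315), and dorsal against flank called MCM7 (0.48 ± 0.17, adjusted p = 0.0489). The KIF20A call between volar and flank and the MCM7 call between dorsal and flank were each lost in 10 of 16 alternative settings.

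MCM5 and NUSAP1 went the other way in these libraries. MCM5 was at 25.8 and 22.7 CPM in flank-labelled libraries and at 10.0 and 13.0 CPM in those labelled dorsal, 12.7 and 9.16 in volar and 16.3 and 11.7 in snout. Levels labelled flank were thus above the 6 other libraries, and the dorsal to flank difference was -1.06 ± 0.25 (adjusted p = 0.0122). NUSAP1 had 98.8 and 91.3 CPM in flank-labelled and 89.4 and 88.9 CPM in volar-labelled libraries, against 67.9 and 60.3 in dorsal and 67.2 and 66.4 in snout (dorsal minus flank -0.56 ± 0.11, adjusted p = 0.00687). Its call between dorsal and flank held in all 16 alternative settings, and that of MCM5 in 14 of 16, lost without the 5-month flank-labelled or dorsal-labelled library.

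The second-set counts rested on single libraries. CDK1 was at 6.31 CPM in the 5-month and 3.52 CPM in the 6-month flank-labelled library, and CCNB1 at 12.8 and 7.03. Without the 5-month flank-labelled library more members were called in each comparison with flank. Without the 6-month one fewer were called between volar and flank and between snout and flank. Leaving out either snout-labelled library also lowered both of these counts. The volar to flank count fell without either volar-labelled library and without the 5-month dorsal-labelled one. Each such refit has 1 library in a group and is not set beside a share of all genes, so its counts are left out. Over 16 alternative settings the volar to flank difference ran from 0.71 to 1.48 for CCNB2 and from 0.67 to 1.93 for KIF20A.

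**Figure D2:**
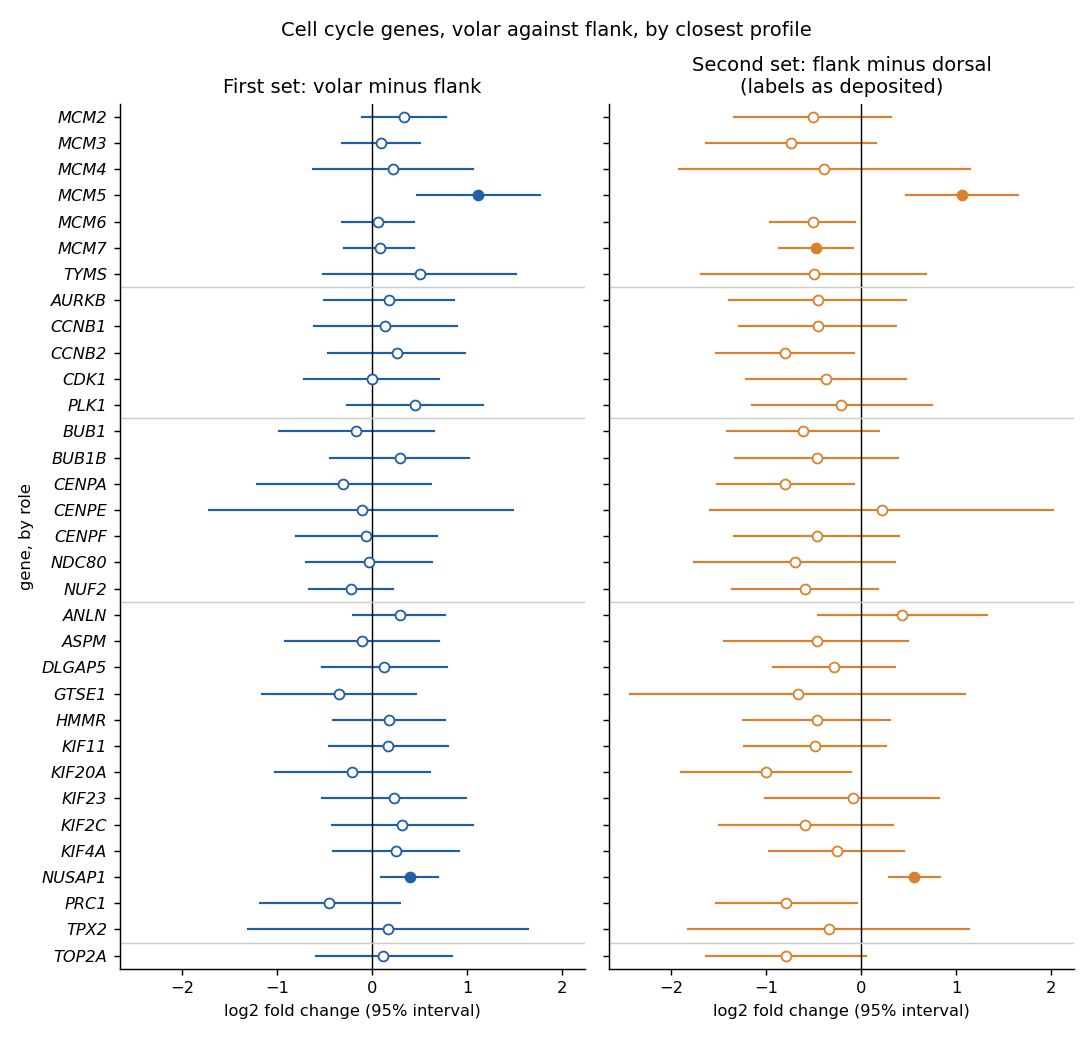
Log2 fold change (horizontal axis) of each of the 33 genes with its 95% interval, grouped by role, for first-set volar minus flank (left) and the second-set pair with matching profiles, flank minus dorsal as labelled (right). Filled points passed the test. MCM5 and NUSAP1 were filled and positive on both sides, at 1.12 and 0.40 on the left and 1.06 and 0.56 on the right, while most other genes lay above 0 on the left and below 0 on the right.

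When sets were aligned by profile, the calls that both shared were MCM5 and NUSAP1. Both were called with the same sign in first-set volar against flank and second-set flank-labelled against dorsal-labelled skin. MCM5 was also called in first-set volar against dorsal and second-set flank-labelled against snout-labelled skin. In the pairs with volar skin the medians of the 33 members lay on opposite sides of 0 or near it: they were 0.14 in the first and -0.47 in the second set for the volar to flank match, 0.19 and -0.81 for volar to dorsal, and 0.02 and -0.73 for volar to snout. In the other pairs they were 0.12 and 0.24 for snout to flank, 0.09 and -0.06 for snout to dorsal, and -0.07 and 0.28 for dorsal to flank. The difference between the sets was tested for each member, and none passed in any of the 6 matched pairs, in which 0.941%, 0.496%, 0.267%, 0%, 0% and 0% of all genes passed. The opposite medians were thus not told apart from the spread between pigs for any single gene.

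With 5 pigs and second-set libraries placed by profile, MCM5 was 2.14-fold higher in volar than in flank skin (1.10 ± 0.20, adjusted p = 0.000159), 1.89-fold higher than in dorsal (0.92 ± 0.20, adjusted p = 0.00104) and 2.05-fold higher than in snout skin (1.04 ± 0.20, adjusted p = 0.000581). All 3 calls held in each of 33 alternative settings. NUSAP1 was higher in volar than in flank (0.47 ± 0.10, adjusted p = 0.000457) and dorsal skin (0.42 ± 0.10, adjusted p = 0.0014), and higher in snout than in flank (0.42 ± 0.10, adjusted p = 0.00297) and dorsal skin (0.38 ± 0.10, adjusted p = 0.00837). NUSAP1 was thus higher at 2 sites and MCM5 at 1. Since these are the libraries of both sets, this fit adds no independent support.

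The same fit called few other members, and 2 in the test for any site (56.2% of all genes). Volar against flank called 2 of 33 (51.9% of all genes), volar against dorsal 3 (45.6%), volar against snout 2 (36%), snout against flank 1 (25.5%), snout against dorsal 1 (19.3%) and dorsal against flank 0 by edgeR (1.16%), with 0 at an unadjusted p under 0.05 in the last. PRC1 was lower in volar than dorsal skin (-0.64 ± 0.25, adjusted p = 0.0404, lost in 12 of 33 settings) and MCM6 lower in volar than snout skin (-0.40 ± 0.15, adjusted p = 0.0407, lost in 9 of 33). With the pig as a block MCM7 was also called lower in volar than dorsal skin (-0.36 ± 0.14, adjusted p = 0.0464). Without the 4-month volar library, which had the highest mitotic sum of the 20 libraries, the counts with volar skin became 7, 11 and 9. The share of all genes called in that refit is not given here, and in the main fit it was 51.9%, 45.6% and 36%. These counts therefore say nothing particular to the members. By deposited label over all 20 libraries, edgeR called 0 of 33 members for any site, with 0 at an unadjusted p under 0.05 and 0 by DESeq2, and it called 0% of all genes.

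The mitotic members varied together from library to library. Over the 20 libraries, centred by set, log2 levels of 2 mitotic members correlated with a median r of 0.78 (-0.38 to 0.96), and those of 2 licensing or synthesis members with a median r of 0.43. A mitotic and a licensing or synthesis gene had a median r of 0.60. These libraries share pigs and depth, so the values describe them and carry no test. ASPM, KIF11 and KIF20A, all spindle genes, were closest to the other mitotic members (median r 0.89 each). CENPE (0.18), MCM5 (0.02) and NUSAP1 (-0.13) were farthest. KIF20A and TOP2A (0.88), near the top of this order, were among the members called in the second set, so the order does not set called members apart.

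Summed over the 26 mitotic members, a sum that long and abundant transcripts dominate, levels ran from 317 to 648 CPM across the libraries. The 33 members together summed to 886, 519 and 657 CPM in first-set volar skin of the pigs aged 4, 7 and 8 months and to 665, 745 and 462 in flank. Dorsal skin had 638, 524 and 726 CPM and snout skin 736, 602 and 731. In the second set the sums were 618 and 421 in flank-labelled, 552 and 645 in dorsal-labelled, 692 and 772 in snout-labelled and 695 and 769 in volar-labelled libraries. The first-set sites overlapped, and the 8-month flank and 6-month flank-labelled libraries were the lowest. The ratio of licensing and synthesis genes to mitotic genes stayed between 0.317 and 0.512 in all 20 libraries.

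**Figure D3:**
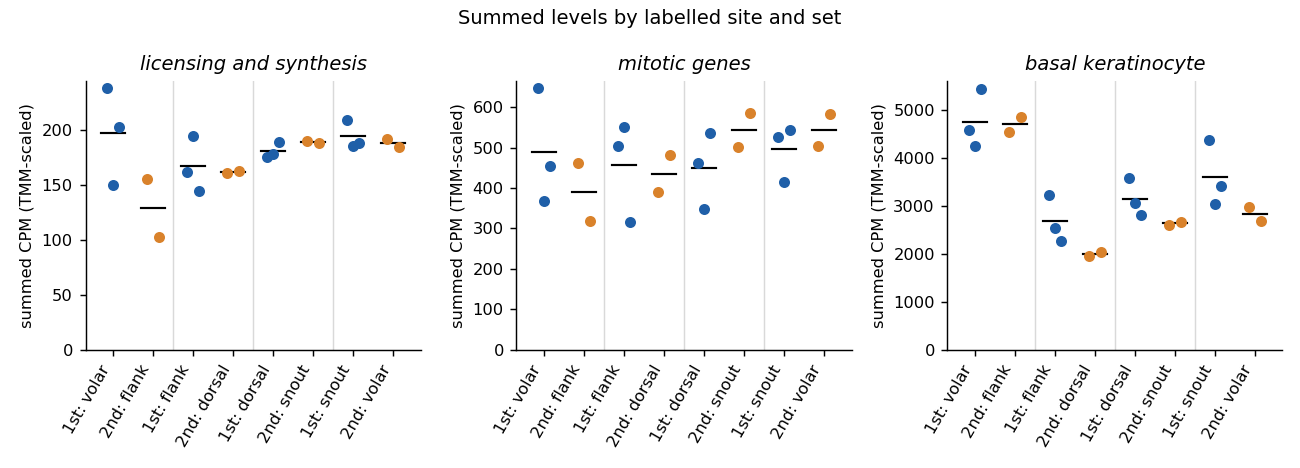
Summed levels (vertical axis, TMM-scaled CPM) of the 7 licensing and synthesis genes, the 26 mitotic genes and 6 basal keratinocyte markers in each library, with blue for the first set, orange for the second and black lines for group means. Basal markers were at 4240 to 5420 CPM in first-set volar and second-set flank-labelled libraries and at 1950 to 4370 CPM elsewhere, while sums of mitotic genes overlapped between the first-set sites.

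The sum of basal keratinocyte markers, which mark the layer where epidermal cells divide, was 4240 to 5420 CPM in first-set volar and 4530 to 4850 CPM in second-set flank-labelled libraries, and 1950 to 4370 CPM elsewhere. No row was matched by symbol for KRT5 and KRT14, and the list rests on KRT15, ITGA6, ITGB4, COL17A1, TP63 and DST. Per 1000 CPM of that sum, mitotic genes had 142, 87.1 and 83.7 CPM in first-set volar skin against 113 to 216 at the other first-set sites, so the groups overlapped through the 4-month pig. Among second-set libraries the ratio was 102 and 65.6 in flank-labelled against 169 to 236 in the other libraries, with no overlap. Lymphocyte and myeloid markers summed to 65.9 to 149 CPM in first-set volar and 53.3 and 55.4 CPM in second-set flank-labelled libraries, against 136 to 320 elsewhere. Fibroblast markers summed to 12700 to 37500 CPM in first-set volar and 6180 and 8150 CPM in second-set flank-labelled libraries. First-set flank had 102000 to 151000 CPM of them and second-set dorsal-labelled libraries 112000 and 230000, with 22100 to 82200 in the remaining groups. Skeletal muscle markers reached 5920 CPM in the 7-month snout library and 2510 and 4240 CPM in the second-set volar-labelled libraries, against at most 16.8 CPM elsewhere. The part of these cell types in the levels of MCM5, NUSAP1 or the mitotic genes was not tested.

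With site and pig as the terms and second-set libraries placed by profile, site held a median 15.6% of the variance of a member's log2 level, pig 14% and the rest 69.1%. These are shares of the sums of squares, in which site and pig each take a part even where neither has an effect. They carry no test. Over all 15735 genes the medians were 47%, 18.4% and 25.9%. Second-set libraries were placed by overall profile, so the site share over all genes is partly set by the placement. NUSAP1 (75.1%) and MCM5 (68.3%) had the largest site shares of the 33. CCNB1 had the largest remainder, 88.5%.

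CENPE, the kinetochore motor that carries chromosomes to the spindle equator, varied by pig (95.1% of its variance) and not by site (0.3%). This gene was singled out after its values were seen. Its levels in volar, flank, dorsal and snout skin were 14.9, 26.2, 16.5 and 16.6 CPM in the 7-month pig. In the 5-month pig they were 31.0, 26.1, 21.9 and 31.5 CPM for the libraries labelled volar, flank, dorsal and snout. The 12 libraries of the other 3 pigs lay between 56 and 78.4 CPM, so the pigs of 5 and 7 months were below the other 3 pigs in every library. The test for any difference between pigs, added after the data were seen, called CENPE in the first set (adjusted p = 0.00357) and over 5 pigs (adjusted p = 7.71e-06). It also called TYMS (adjusted p = 0.0312 and 0.0126), and no other member, where 1.48% of all genes were called in the first set and 18% over 5 pigs.

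TYMS was highest in the 4-month pig at every first-set site, at 11.2 CPM in volar, 6.83 CPM in flank, 6.66 CPM in dorsal and 7.31 CPM in snout skin. The pigs of 7 and 8 months had 3.01 to 4.75 CPM. The 6-month pig of the second set had 8.51 to 9.72 CPM in the libraries labelled snout, dorsal and volar but 4.25 in the one labelled flank, and the 5-month pig had 3.29 to 5.73 CPM.

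**Figure D4:**
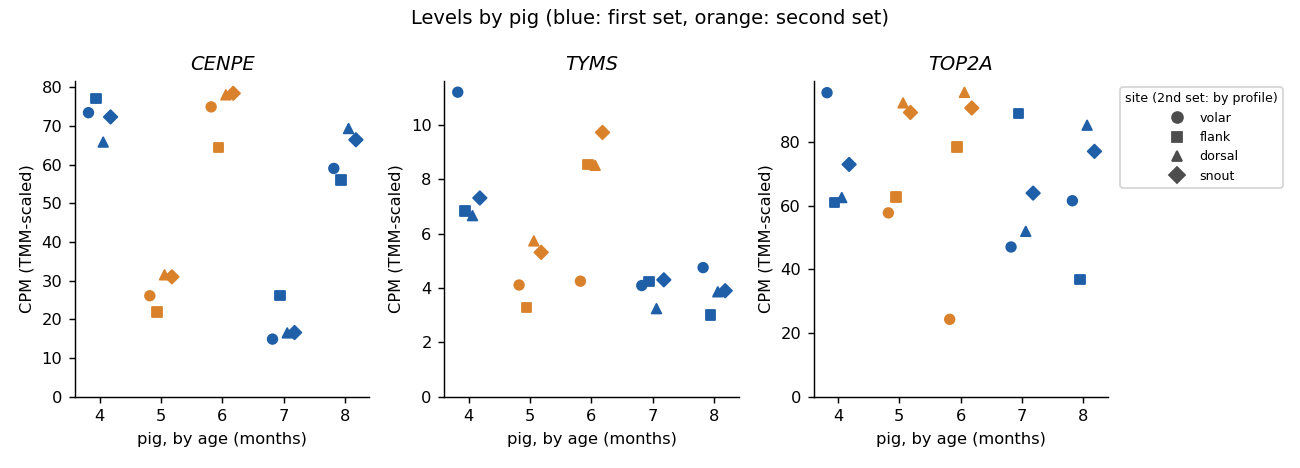
Levels of CENPE, TYMS and TOP2A (vertical axis, TMM-scaled CPM) by pig, named by age in months (horizontal axis), with blue for the first set, orange for the second and a symbol for each site, where second-set libraries carry the site of the closest profile. CENPE was at 14.9 to 31.5 CPM in all 8 libraries of the 5- and 7-month pigs and at 56 to 78.4 CPM in the 12 others, while TOP2A varied within pigs.

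Upstream of the members, CDKN1A, CDKN2B and CDKN2D, which hold cyclin-dependent kinases in check, were higher in first-set volar than flank skin, and the other 5 inhibitors of the list did not pass. Between first-set volar and flank skin 3 of 8 CDK inhibitors were higher and 0 lower, a share of 37.5% near the 32.9% of all genes. Between volar and dorsal skin 4 were higher and 0 lower, where 24.1% of all genes were called. CDKN1A, which halts the cycle downstream of p53, had 48.2, 44.4 and 26.2 CPM in volar and 14.4, 11.4 and 13.8 CPM in flank skin of the pigs aged 4, 7 and 8 months. The volar libraries were all above the flank, dorsal and snout libraries, which reached 18.9 CPM. The difference was 1.58 ± 0.24 from flank (adjusted p = 0.000703), 1.48 ± 0.24 from dorsal (adjusted p = 0.00137) and 1.34 ± 0.24 from snout skin (adjusted p = 0.0049). Second-set CDKN1A levels were 49.7 and 52.3 CPM in flank-labelled and 9.80 and 21.9 CPM in dorsal-labelled libraries, a dorsal minus flank difference of -1.68 ± 0.35 (adjusted p = 0.00769).

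CDKN2B, an inhibitor of the cyclin D kinases, had 121, 127 and 171 CPM in first-set volar and 71.3, 49.3 and 31.9 CPM in flank skin (1.46 ± 0.33, adjusted p = 0.00728). Second-set flank-labelled libraries had 97.6 and 145 CPM and dorsal-labelled ones 26.1 and 50 (-1.66 ± 0.37, adjusted p = 0.00974). CDKN2D, of the same inhibitor family, was high in both volar and snout skin of the first set: 8.26, 4.73 and 4.73 CPM in volar and 6.65, 5.12 and 5.43 in snout, against 2.52, 2.40 and 2.45 in flank. It differed from flank by 1.26 ± 0.28 in volar (adjusted p = 0.00643) and by 1.22 ± 0.28 in snout skin (adjusted p = 0.0172). Its levels in second-set flank-labelled libraries, 2.86 and 2.60 CPM, were near those labelled dorsal, 2.15 and 2.68.

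Among G1 cyclins and their kinases, which commit a cell to replication, 4 of 8 were higher and 1 lower in first-set volar than flank skin (62.5% of the list, 32.9% of all genes). CCNE1, the cyclin of S phase entry, had 19.0, 10.4 and 11.3 CPM in volar, 6.58, 5.77 and 5.66 in flank and 18.6, 11.3 and 12.4 in snout skin. Volar and snout skin both lay above flank (1.17 ± 0.26, adjusted p = 0.00652, and 1.23 ± 0.26, adjusted p = 0.0122). Its kinase CDK2 had 173, 187 and 175 CPM in volar and 123, 115 and 141 CPM in flank skin (0.50 ± 0.10, adjusted p = 0.00372). CCND1, a cyclin that couples growth signals to the cycle, was lower in volar skin, with 55.8, 62.5 and 72.8 CPM against 82.3, 121 and 96.0 in flank (-0.65 ± 0.16, adjusted p = 0.0112).

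The second set had the same direction in CCNE1, CDK2 and CCND1 when aligned by profile. Dorsal-labelled minus flank-labelled differences were -1.30 ± 0.17 for CCNE1 (adjusted p = 0.00108), -0.64 ± 0.11 for CDK2 (adjusted p = 0.00353) and 1.04 ± 0.12 for CCND1 (adjusted p = 0.000679). CCND2, another D cyclin, had 4.92, 5.12 and 8.87 CPM in first-set volar skin and no count in flank or dorsal skin, at least 381-fold and 416-fold higher against a floor of 3 counts over the group. Its call was lost without any 1 of the volar or flank libraries, and second-set libraries labelled dorsal had 4.42 and 4.40 CPM, where flank-labelled ones had 4.32 and 0.

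**Figure D5:**
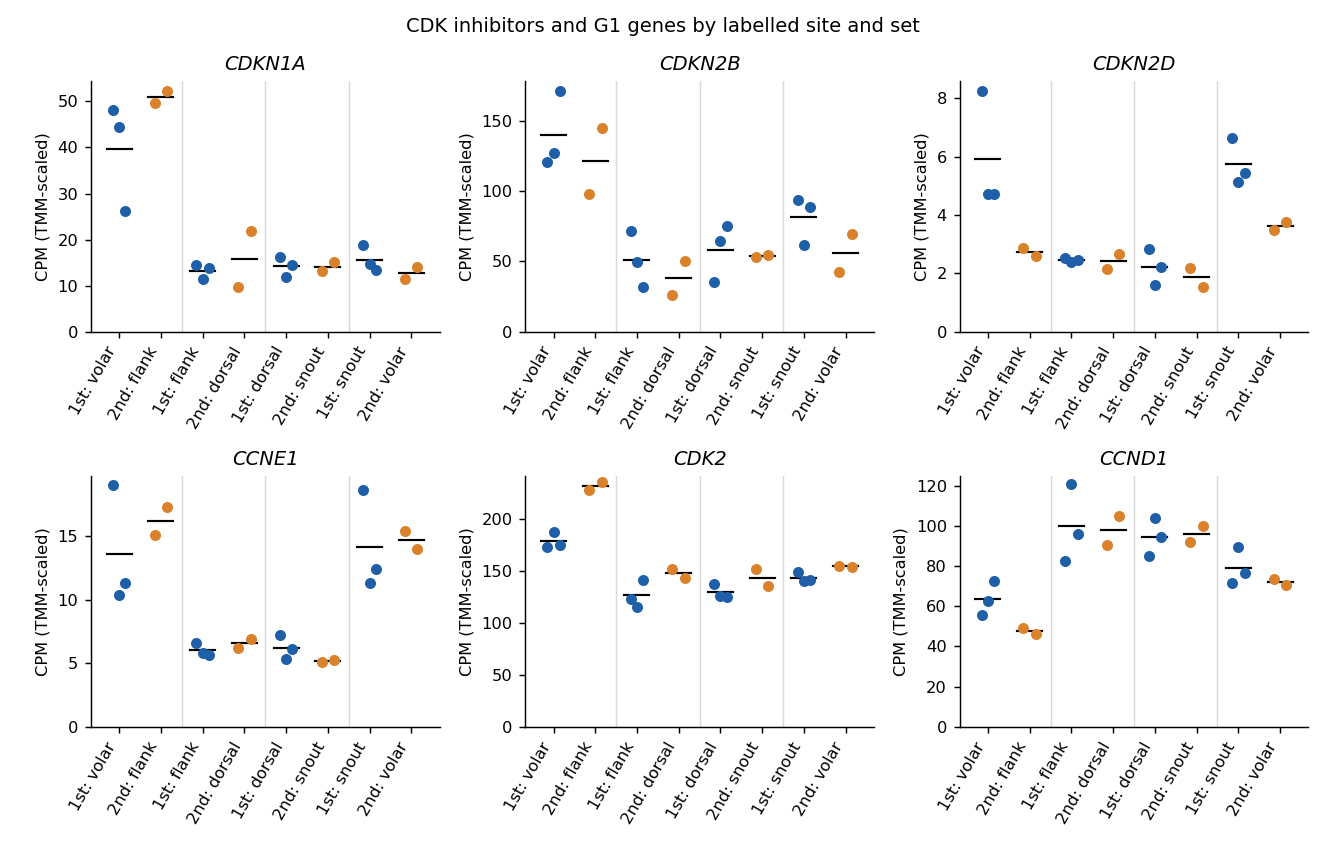
Levels of 3 CDK inhibitors and 3 G1 genes (vertical axis, TMM-scaled CPM) in each library, with blue for the first set, orange for the second, black lines for group means and second-set groups under their deposited labels. CDKN1A was at 26.2 to 52.3 CPM in first-set volar and second-set flank-labelled libraries and at 9.80 to 21.9 CPM elsewhere, while CCND1 was lowest in those 2 groups, apart from 1 volar library.

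Other cell cycle lists moved in both directions. Between first-set volar and flank skin, 2 of 20 RB, E2F and mitotic transcription factors were higher and 1 lower, 1 of 34 origin and fork genes was higher and 2 lower, 1 of 25 genes of mitotic entry and exit was higher and 2 lower, and 1 of 30 further kinetochore, spindle and condensin genes was higher and 2 lower. Each share was below the 32.9% of all genes. LIN54, a subunit of the complex that controls mitotic genes, had 62.2, 75.3 and 65.6 CPM in volar and 41.9, 51.7 and 39.5 CPM in flank skin (0.61 ± 0.14, adjusted p = 0.00865). CDC25A, a phosphatase that activates cyclin-dependent kinases, had 20, 23.7 and 19.1 CPM in volar and 11.1, 14.7 and 11.4 CPM in flank skin (0.75 ± 0.18, adjusted p = 0.00955). Both genes were above flank in every first-set volar library and had the matching direction in the second set (dorsal minus flank -0.87 ± 0.13 and -1.19 ± 0.19, adjusted p = 0.00177 and 0.00226).

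NCAPG and ESPL1, late mitotic genes of these lists, moved in opposite directions in the first set. NCAPG, a condensin subunit that compacts chromosomes, had 17.1, 39.8 and 30.5 CPM in volar and 10.8, 14.3 and 6.23 CPM in flank skin (1.48 ± 0.33, adjusted p = 0.00629). ESPL1, the separase that cuts sister chromatids apart, had 6.82, 4.96 and 4.57 CPM in volar and 12.8, 16.7 and 8.63 CPM in flank skin (-1.23 ± 0.25, adjusted p = 0.00374). NCAPG had 17.9 and 12.5 CPM in second-set flank-labelled and 9.22 and 11.7 CPM in dorsal-labelled libraries and passed no second-set test. ESPL1 was again lower in the flank-labelled libraries, 4.43 and 4.61 CPM against 8.41 and 13.2 labelled dorsal (dorsal minus flank 1.27 ± 0.25, adjusted p = 0.00548). Of the same lists CENPK (-0.72, adjusted p = 0.0103) and CCNA1 (-3.35, adjusted p = 0.0342) were also lower in first-set volar than flank skin. FAM83D was higher in volar than dorsal skin (1.85, adjusted p = 0.00896). The second set had the matching direction (dorsal minus flank 1.25 and 4.89, and snout minus flank -1.96 for FAM83D). The first-set CCNA1 call was lost in 8 of 23 alternative settings, among them limma-voom and every one that left out a whole pig. Its second-set dorsal to flank difference ran from 3.17 to 10.36 over 16 settings and was not called by limma-voom.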

How the data were processed

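Estimated counts per pig Ensembl gene in 20 libraries were deposited by the authors, who used Salmon per the submitters' processing notes. The sources used here do not give the Salmon version, build or annotation, so coordinates are left out. Libraries were TruSeq stranded mRNA, per the labels' protocols. Of 19280 identifiers 14821 matched a symbol in the gene name tables supplied. Values, 42.2% of them not whole, were rounded.

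Counts were tested with edgeR 4.0.16 (robust quasi-likelihood fit, R 4.3.3). Genes were kept by filterByExpr with a minimum count of 10 and a minimum total of 15, libraries were scaled by TMM, and p-values were adjusted by Benjamini-Hochberg over all genes tested. The first-set fit had 12 libraries and 8 residual degrees of freedom, the second-set fit 8 and 4. Alternatives were DESeq2 1.42.0, limma-voom 3.58.1, other scalings and filters, single libraries or pigs left out, and the pig as a block. Sites of 1 number come from the same pig, and deviations from site means within a pig had a median r of 0.19 in the first and 0.30 in the second set. In the fits by label no library was moved between labelled groups. The fit with second-set libraries placed by expression profile is given beside the labels. Profiles and correlations used log2 CPM with 0.5 added. Self-tests on simulated counts preceded the fits.

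The members, lists and tests were chosen with earlier results of these data known. Named were the members with the smallest adjusted p for any site in the first set, at most 2 a role, with TOP2A, CDK1, CCNB1 and MCM2 in any case, and up to 4 genes a pathway list by the same measure. Other genes named beside them were called in a test or mark a range, and CENPE and TYMS were chosen after their values were seen. PCR copies cannot be told from separate molecules in these counts.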

Additional observations from a re-analysis of the deposited data

Results flagged for a closer look

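The effect of site differed between the sets under the same labels, by a test of the difference itself, for 4 members in volar against flank skin, 4 in snout against flank and 2 in dorsal against flank. For volar against flank these were MCM5 (first minus second set 2.27 ± 0.44 on the log2 scale, adjusted p = 0.00063), NUSAP1 (0.49 ± 0.18), NUF2 (-1.20 ± 0.36) and MCM6 (-0.69 ± 0.27). For snout against flank they were NUSAP1 (0.90 ± 0.18, adjusted p = 0.0012), CENPA (-1.69 ± 0.60), KIF20A (-1.58 ± 0.59) and NUF2 (-0.98 ± 0.36), and for dorsal against flank MCM5 (1.19 ± 0.44) and NUSAP1 (0.61 ± 0.18). Of all genes 49.1%, 43.4% and 39% differed in these 3 tests, and with the sets aligned by profile no member did.

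In 2 of 120 groups of 4 or 5 libraries checked, 1 library lay far from the rest, where chance alone gives about 1 in 20. The licensing and synthesis genes summed to 209 CPM in the 4-month snout library, and to 186 to 190 CPM in the other 4 libraries labelled snout. NUSAP1 had 58.8 CPM in the 4-month dorsal library and 65.6 to 67.2 CPM in the other 4 libraries placed at that site.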

How the results depend on the processing

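Of 468 counts of called members recomputed under alternatives, 390 stayed within 1.5 times the value reported and 78 moved, and no called gene changed direction in any of them. In the first set, DESeq2 called 2 members for any site (6244 genes in all), 1 for snout against flank (3038) and 1 for volar against snout (2730). By limma-voom 0 passed for any site (4348). Upper-quartile scaling and leaving out the 20 most abundant genes each left 1 in volar against flank (5048 and 5028 genes in all). In the second set, DESeq2 called 6 in dorsal against flank (7682), 12 in volar against flank (6573) and 1 in volar against snout (2470). Upper-quartile scaling called 6 there in dorsal against flank (7144) and 0 in volar against dorsal (1948). Over 5 pigs placed by profile, upper-quartile scaling called 5 in volar against dorsal (7148). The main fits tested 15302 genes in the first set, 15280 in the second and 15275 over 5 pigs.

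With the pig as a replicate block, the first set gave 2 in volar against dorsal (4554 genes in all) and 1 in snout against flank (2600). The second set gave 1 in volar against snout (2137). No other count moved by over 1.5 times under the block. It gave 8 members in place of 7 in second-set volar against flank, 12 in place of 9 in snout against flank and 4 in place of 3 in dorsal against flank. Over 5 pigs it gave 4 in place of 3 in volar against dorsal. Their shares of all genes are not given here, so these last counts describe the refits and not the members. Leaving out 1 library or pig gave, in the first set, 0 to 2 for any site, volar against flank and volar against dorsal, and 0 to 1 for snout against flank and volar against snout. In the second set it gave 2 to 20 for dorsal against flank, 0 to 24 for snout against flank, 0 to 22 for volar against flank and 0 for volar against dorsal. Over 5 pigs placed by profile, leaving out 1 library or pig gave 2 to 7 for volar against flank and 2 to 11 for volar against dorsal. It gave 1 to 9 for volar against snout and 0 to 1 for snout against dorsal. The shares of all genes called with 1 library or pig left out are not given here. The cause of these shifts was not tested.

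Upper-quartile scaling moved the median of all genes to -0.141 in first-set volar against flank, where 19 of 33 members were then above 0 in place of 23, and the members' median in volar against snout from 0.02 to -0.02. In second-set snout against flank it moved CCNB2 from 1.03 to 1.18 and NUSAP1 from -0.52 to -0.37, and MCM5 was no longer called. Leaving out a whole second-set pig was not run, since it leaves no residual degrees of freedom.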
